A study of Mus musculus with 16 samples.

Results

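Mouse embryonic fibroblasts (MEFs) were set against the 4 clones of induced pluripotent stem (iPS) cells made with the vector iHAC1, which are 5 of the 16 arrays of the series and were taken by their sample titles. The MEFs, on 1 array, were cultured from wild-type C57BL/6-J embryos of mid-gestation. The clones 1-A3, 1-B, 1-C3 and 1-D6 were derived from MEFs that had received iHAC1, a human artificial chromosome with 2 copies each of mouse Klf4, c-Myc, Sox2 and Oct4, every copy driven by the ubiquitous CAG promoter between insulators. Unlike the second vector of the study, iHAC1 carries no construct against p53. During reprogramming the cells were also given mimics of the microRNAs miR-294 and miR-295, and each line was grown from a single colony on feeder layers of mitomycin C-treated fibroblasts from Jcl:ICR mice, in medium with leukemia inhibitory factor. How much RNA of feeder cells each sample held is not given in the sources used here. The ES cell lines B6ES and TT2, grown on the same kind of feeder layer, give a reference level beside the comparison. The MEFs have no replicate, whereas the 4 clones are lines from separate colonies of the same iHAC1 transfer experiment.

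Fibroblasts are mesenchymal cells that make collagen-rich matrix, contract through actin bundles and keep the Hox code of the body region they came from. Reprogramming to a pluripotent state is known to begin with the loss of this somatic programme, faster division and a switch towards glycolysis. Entry into the self-sustaining network around endogenous Oct4, Sox2 and Nanog and the return of late pluripotency genes follow later. The comparison asks which of these steps separated the iHAC1-iPS clones from the fibroblasts, and only genes with all 4 clones on the same side of MEF were taken as changed.

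Levels are log2 of the background-subtracted spot intensity minus the 75th percentile of the array, and a difference of 1 is a 2-fold change. On the MEF array 65.8% of the spots were well above background, against 61.7% to 62.0% on the clone arrays, and no spot was saturated. The test took in the 28890 of 41174 probes that any of the 5 arrays measured above its background limit. A probe was called when limma gave an adjusted p under 0.05, the mean of the clones lay at least 2-fold from MEF and all 4 clones lay on the same side. The MEF array was taken in this fit to vary like the groups with replicates, since its own spread is not measured. An exact permutation test of 1 array against 4 cannot go below p = 0.2, so no single gene has a test free of that assumption. A level here is that of the whole sample, in which fewer cells of a type and less RNA per cell cannot be told apart.

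About equal numbers of probes were called in either direction, but most called changes of at least 4-fold were decreases. With limma, 2962 probes were called higher in the clones, 10.3% of those tested, and 2969 were called lower, 10.3% as well. Counted as genes with 1 probe each, 2113 of 19377 were called higher (10.9%) and 2053 lower (10.6%). By size alone, without a test, all 4 clones lay at least 2-fold above MEF for 2354 probes (8.15%) and at least 2-fold below for 3049 (10.6%), and all 4 lay on the same side at any distance for 73.3% of the probes. At least 4-fold changes, with dim levels taken as read, were called for 748 probes that were higher and 1855 that were lower. Of the probes called lower, 925 were not well above background on any clone array, while 269 of those called higher were not well above background on the MEF array and were measured on all 4 clones. Among probes measured on all 5 arrays, 2500 were called higher and 1646 lower, so the balance of the calls depended on dim probes. With normexp background correction the calls over all probes were 2121 higher and 1838 lower. The median standard deviation (SD) among the clones was 0.27, and the median standard error (SE) of a difference was 0.37. Across all probes tested the clones lay 0.15 above MEF at the median, and 0.18 across genes, so that a difference of that size lies at the centre of all genes and does not set a gene apart. The probes called higher had a median log2 difference from MEF of 1.5 in the clones and 1.48 in the ES lines, and those called lower had medians of -2.31 and -2.33. The medians of clones and ES lines use the same MEF array, by which the probes were also chosen, so their closeness is not a result.

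**Figure D1:**
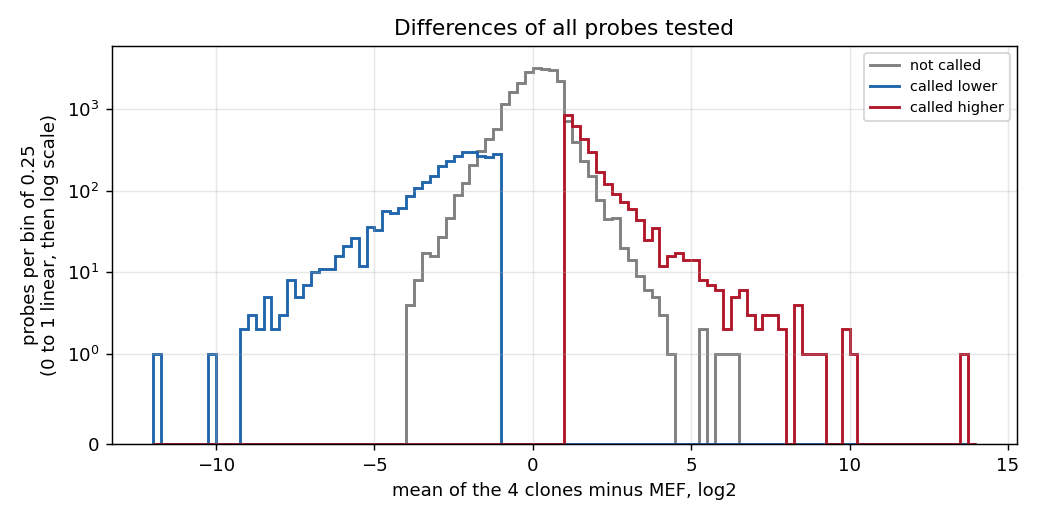
Number of probes (log scale above 1) against the mean of the 4 clones minus MEF on the log2 scale, for 28890 probes, with lines for probes called lower, called higher and not called. The line for lower calls reaches further from 0 than that for higher calls, except for the single largest increase, that of Pou5f1 at 13.70.

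The factors carried by iHAC1 were read first, because they check the labels. The mRNA of Oct4, the gene Pou5f1, was well above background in every clone and not in MEFs. Its log2 level was -7.14 in MEF, 6.65 in 1-A3, 6.57 in 1-B, 6.32 in 1-C3 and 6.67 in 1-D6, against 3.56 in B6ES and 4.00 in TT2. All 4 clones thus lay above both ES lines, and the increase over MEF was at least 5992-fold (limma, adjusted p = 9.57e-08). Klf4, also a gene of fibroblasts, was instead lower in the clones by the only probe of the array. It had 4.86 in MEF, 2.15 in 1-A3, 2.09 in 1-B, 2.13 in 1-C3 and 2.90 in 1-D6, with a log2 difference of -2.54 (SE 0.71, limma's adjusted p = 0.0206), while the ES lines were at 5.05 and 5.76. Sox2 was at -0.36 in MEF and between 0.62 and 1.56 in the clones, a log2 difference of 1.43 (SE 0.78) that was not called (limma, adjusted p = 0.197), and at 3.74 and 3.36 in the ES lines. The probes of Klf4 and Sox2 start at bases 2160 and 1846 of their transcripts, and that of Pou5f1 at base 903. Whether the Klf4 and Sox2 probes read the copies on iHAC1 is not given in the sources used here and was not tested.

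For c-Myc, the gene Myc, the 3 probes of the array went in opposite directions, and their sequences show where they read the transcript. The probe at base 1407 lies inside the open reading frame, the probe at base 1899 covers the stop codon (capitals) with 44 coding bases before it and 13 bases after it, and the probe at base 1998 starts 52 bases after the stop codon, in the 3′ untranslated region. In mm9 the files place them at chr15:61820925-61820984, chr15:61821417-61821476 and chr15:61821516-61821576. Of the third only the first 30 of 60 bases are shown.
Myc, base 1407: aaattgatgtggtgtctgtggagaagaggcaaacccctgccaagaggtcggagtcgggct
Myc, base 1899: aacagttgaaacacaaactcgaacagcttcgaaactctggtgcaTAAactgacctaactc
Myc, base 1998: gttccttctgacagaactgatgcgctggaa

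The coding probe had log2 levels of -1.09 in MEF, 4.60 in 1-A3, 3.58 in 1-B, 3.73 in 1-C3 and 4.46 in 1-D6, so it rose by 5.18 (SE 0.68, limma's adjusted p = 0.000234). The probe over the stop codon had 1.33 in MEF and 6.58, 5.80, 5.84 and 6.53 in the clones in the same order, and rose by 4.86 (SE 0.62, adjusted p = 0.00018). The probe in the untranslated region had 2.23 in MEF and -1.34, -0.63, -0.39 and 0.22 in the clones, and fell by 2.76 on the log2 scale (SE 0.50, adjusted p = 0.0019). For each of the 3 probes all 4 clones lay on the same side of MEF, as they did for 73.3% of all probes tested. In the ES lines the coding probe was at -0.85 and -1.13, the probe over the stop codon at 1.54 and 1.42, and the last at 2.43 and 2.34. The clones thus lay above both MEF and the ES lines for the first pair of probes and below them for the third. Which stretch of each factor's mRNA the iHAC1 copies hold is not given in the sources used here, and its part in these values was not tested.

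**Figure D2:**
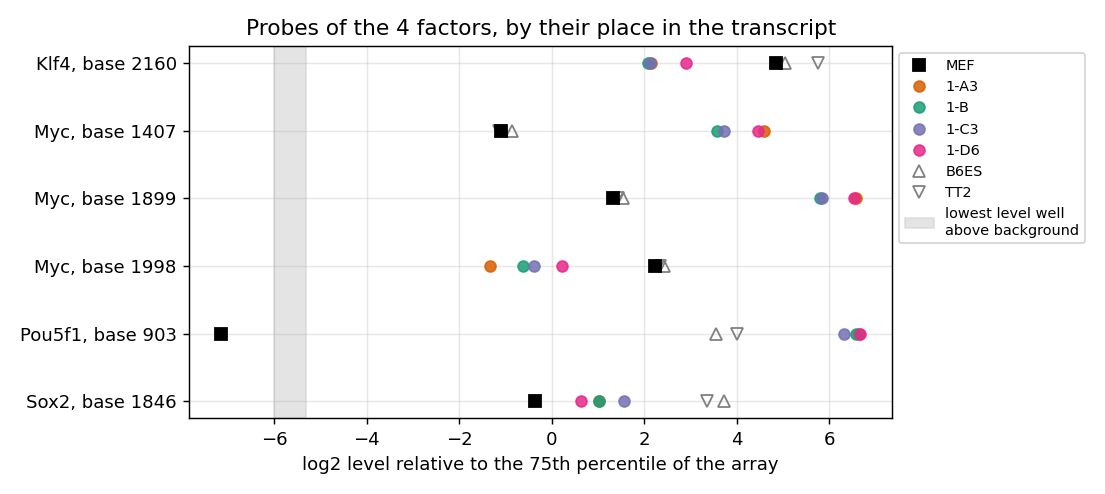
Log2 level, relative to the 75th percentile of the array, of each probe of the 4 factors on the arrays of MEF (squares), the clones (circles) and the ES lines (triangles), with the base of the transcript where the probe starts. The first 2 Myc probes lie higher in all 4 clones than in MEF and the third lies lower in all 4, and the grey band spans the lowest levels that were well above background on the 5 arrays.

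Of 36 pluripotency-associated genes without primers in the study, 19 were called higher (52.8%, against 10.9% of all genes), 1 was called lower (2.78%, against 10.6%) and 16 were not called, with a median log2 difference of 1.86. The increases ran from genes not measured in MEF to genes that MEF already expressed, such as Klf2, a Kruppel-like factor, at 6.04 in MEF and between 7.33 and 7.57 in the clones. Of the 9 measured pluripotency markers for which the study used primers, limma called 1, Nanog, higher (11.1%, against 10.9% of all genes) and 0 lower, while 4 were higher and 0 lower at an unadjusted p under 0.05. Nanog, the homeodomain factor that stabilises the pluripotent state, was not well above background in MEF (-8.09) and stood at -1.07 in 1-A3, -0.17 in 1-B, 0.59 in 1-C3 and -1.81 in 1-D6. This is at least 41.8-fold higher than MEF (limma, adjusted p = 0.000129), and the ES lines were higher still at 1.91 and 2.43.

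Several genes were dark in fibroblasts and clear in every clone. Sall4, a zinc finger partner of Oct4, went from -8.07 in MEF to 0.88 in 1-A3, 2.00 in 1-B, 2.75 in 1-C3 and 1.47 in 1-D6, at least 219-fold higher. Gdf3, a ligand of the TGF-beta family found in ES cells, went from -8.24 to 2.68, 0.89, 2.33 and 1.96 in the same order, at least 250-fold higher, and the ES lines lay within that range at 2.34 and 2.21. Alpl, the tissue-nonspecific alkaline phosphatase used to stain pluripotent colonies, was measured on all arrays. It had -3.23 in MEF, 4.19 in 1-A3, 3.43 in 1-B, 3.47 in 1-C3 and 4.05 in 1-D6, a 129-fold increase (limma, adjusted p = 6.22e-07) to the level of B6ES (3.82) and TT2 (3.87). Nr0b1, an orphan nuclear receptor of the network, was at -6.24 in MEF and at -1.36 in 1-A3, against 2.50, 2.55 and 2.28 in the other 3 clones, at least 180-fold higher by the mean.

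Other increases were uneven among the clones, with 1-B and 1-C3 above 1-A3 and 1-D6. Lefty1, an inhibitor of Nodal signalling, had -3.48 in MEF, 0.68 in 1-A3, 5.10 in 1-B, 4.51 in 1-C3 and 2.13 in 1-D6, a 96.0-fold increase (limma, adjusted p = 0.00639). Its neighbour Lefty2 was well above background on 3 of the 4 clone arrays and was at least 45.4-fold higher by the mean. Fbxo15, an F-box gene that is a classic reporter of reprogramming, went from -5.36 to between 0.01 and 3.75, a 102-fold increase. Lin28a, which encodes an RNA-binding protein that blocks let-7, was at -8.25 in MEF and at -7.58 in 1-A3, 1.18 in 1-B, 1.98 in 1-C3 and -3.01 in 1-D6, and was not called (limma, adjusted p = 0.0713). Eras, a Ras gene of ES cells, had the same order, from -7.59 in 1-A3 to 0.95 in 1-C3, and was not called either. The only member called lower was Tbx3, a T-box factor also active in mesenchyme, at 2.94 in MEF and between -0.50 and 0.63 in the clones, a call that was lost without 1-C3.

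Of the markers with primers, the other 8 were not called. Over all 9, the median log2 difference from MEF was 2.34 in the clones and 9.43 in the ES lines. Dppa5a, an RNA-binding protein gene of early embryos, was at -2.18 in MEF, -1.73 in 1-A3, 0.39 in 1-B, 3.22 in 1-C3 and -1.25 in 1-D6, and at 8.96 and 8.36 in the ES lines. Dnmt3l, the cofactor of de novo DNA methylation, was at -4.02 in MEF and between -3.79 and 0.03 in the clones, and Zfp42, also known as Rex1, was at -7.36 and between -5.88 and -3.48. Dppa3 was at -5.61 in MEF and between -7.55 and -4.50 in the clones, on both sides of MEF. For these 4 limma's adjusted p lay between 0.103 and 0.705, and the ES lines lay between 2.89 and 8.96. Gbx2, a homeobox gene of the naive state, came closer to the ES lines. It had -4.50 in MEF, -1.45 in 1-A3, -1.04 in 1-B, -0.37 in 1-C3 and 0.09 in 1-D6, all more than 2-fold above MEF, with 1.03 in B6ES and 0.12 in TT2 (SE 1.49, limma's adjusted p = 0.0778). Utf1, a chromatin factor of ES cells, was at -4.83 in MEF, at -3.95 in 1-A3 and -2.66 in 1-D6, and at 0.94 in 1-B and 0.22 in 1-C3 (limma, adjusted p = 0.0706).

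Most genes of DNA replication and mitosis were higher in the clones. Of 42 measured, limma called 31 higher and 0 lower, 73.8% against 10.9% of all genes, and the median log2 difference was 1.46 against 0.18 over all genes. At an unadjusted p under 0.05 the counts were 37 and 0. Mcm10, which helps to load the replication machinery, had 1.85 in MEF, 4.12 in 1-A3, 4.28 in 1-B, 4.65 in 1-C3 and 4.36 in 1-D6, a 5.67-fold increase (limma, adjusted p = 2.3e-05). E2f2, a transcription factor of the S-phase genes, rose 5.01-fold and Brca1, a DNA repair gene, 4.72-fold, and their clone levels lay at 2.24 to 3.04 and 1.40 to 1.63 above MEF levels of 0.18 and -0.74. Bard1, the partner of Brca1, was not well above background in MEF and was at least 5.41-fold higher. Ccnd1, the cyclin D1 gene that growth factors induce, was not called, with 3.41 in MEF and 1.44 to 3.30 in the clones.

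Most inhibitors of the cycle and targets of p53 were not called. Of 29 measured, 6 were called lower (20.7%, against 10.6% of all genes) and 1 higher (3.45%, against 10.9%), with a median of -0.32. The gene called higher was Cdkn2a, which encodes p16Ink4a and p19Arf, inhibitors of the cell cycle that promote senescence. It had -2.84 in MEF, 0.23 in 1-A3, 1.01 in 1-B, 0.27 in 1-C3 and 0.80 in 1-D6, a log2 increase of 3.41 (SE 0.43, limma's adjusted p = 0.000176), and the clones lay above the ES lines at -1.06 and -0.39. Cdkn2a was read by 1 probe, so its 2 products cannot be told apart here. Igfbp5, an IGF-binding protein gene, fell 10.2-fold and Plk2, a p53-responsive kinase gene, 4.12-fold. Cdkn1a, the p21 gene, was at 4.10 in MEF and between 2.94 and 3.22 in the clones, a log2 difference of -0.97 that stayed short of 2-fold. Trp53 itself was at 0.35 in MEF and between 0.91 and 1.18 in the clones and was not called (limma, adjusted p = 0.204).

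Among glycolysis and one-carbon genes, limma called 21 of 31 higher, 67.7% against 10.9% of all genes, left 10 without a call, and called 0 lower, also 0 at an unadjusted p under 0.05, with a median log2 difference of 1.31. Slc2a3, the high-affinity glucose transporter GLUT3, went from 1.17 in MEF to 4.25 in 1-A3, 5.69 in 1-B, 5.78 in 1-C3 and 4.45 in 1-D6, a 14.6-fold increase (adjusted p = 0.000298). Slc16a3, a lactate exporter, rose from 2.23 to between 4.76 and 6.45. In both cases the ES lines lay inside the range of the clones. Tdh, threonine dehydrogenase, on which mouse ES cells depend for one-carbon units, went from -5.38 to -1.71 in 1-A3, 3.14 in 1-B, 4.59 in 1-C3 and 1.83 in 1-D6. This was a 162-fold increase by the mean (limma, adjusted p = 0.00446), spread over more than 6 log2 units among the clones and below the ES lines at 7.21 and 7.15. Gldc, the glycine decarboxylase that works downstream, rose 8.45-fold with clones between 2.27 and 2.49.

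Of 28 DNA methylation and Polycomb genes, 8 were called higher (28.6%, against 10.9% of all genes) and 0 lower by limma, while 14 and 0 passed at an unadjusted p under 0.05. With only the 5 arrays in the fit 5 were called higher, without Dnmt3b and Cbx7, and without 1-A3 1 was called lower. Dnmt3b, the de novo methyltransferase, had -2.93 in MEF, -0.76 in 1-A3, 3.65 in 1-B, 4.22 in 1-C3 and 0.43 in 1-D6, a 28.2-fold increase (adjusted p = 0.0245). Its relative Dnmt3a was at 0.17 in MEF and between -1.09 and 0.58 in the clones, on both sides, and was not called. Polycomb subunit genes Cbx7 and Cbx2 rose 8.86-fold and 4.66-fold, and Jarid2, a cofactor of the complex that methylates lysine on histone H3, rose 3.60-fold. For Cbx7 the clones lay between -1.74 and 0.47 and the ES lines higher, at 3.34 and 2.88.

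**Figure D3:**
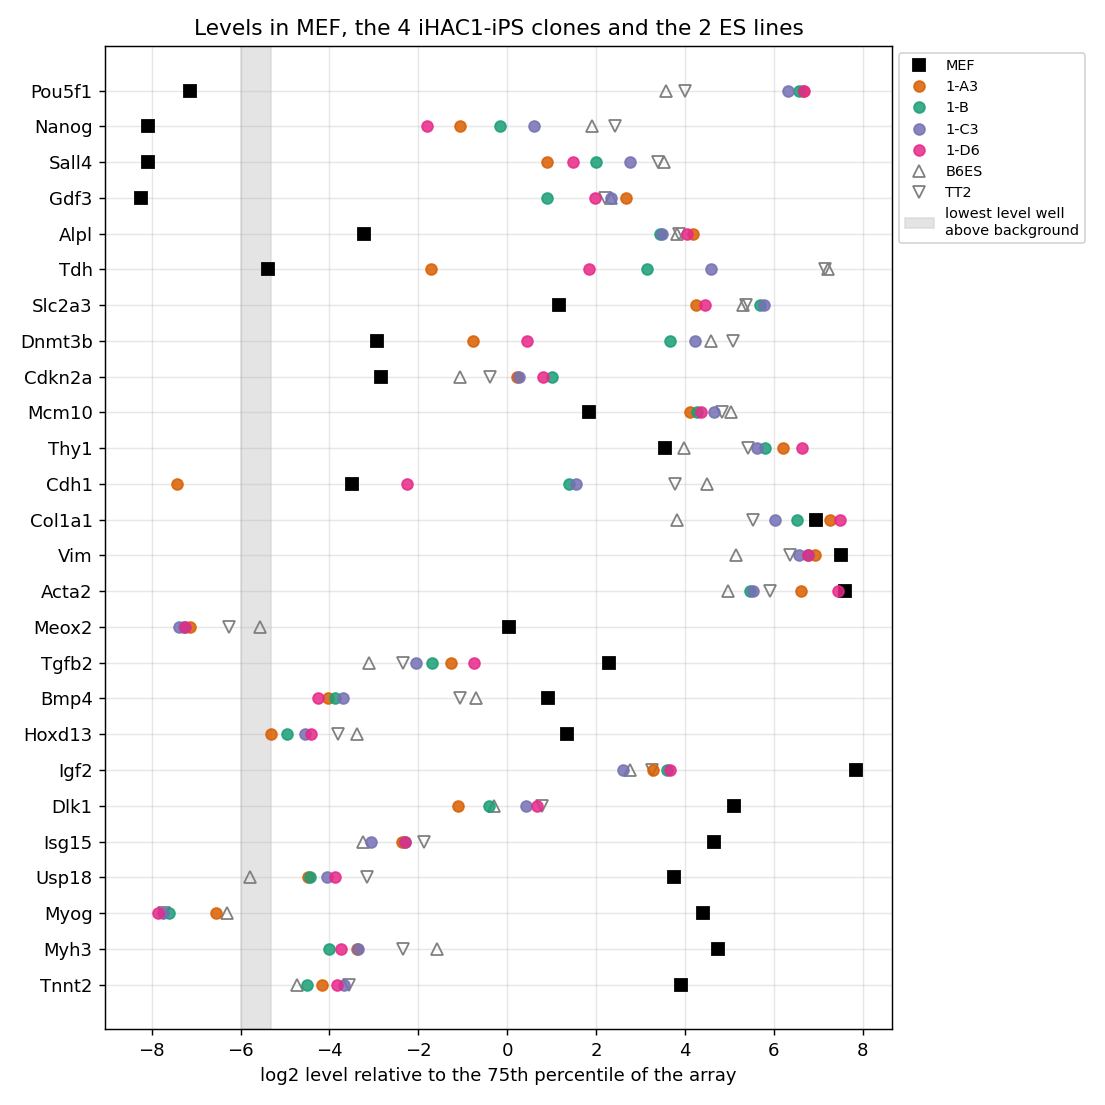
Log2 level, relative to the 75th percentile of the array, of 26 genes on the arrays of MEF (squares), the 4 clones (circles) and the 2 ES lines (triangles). All 4 clones lie to one side of MEF for all genes shown except Cdh1 and Col1a1, and the grey band spans the lowest levels that were well above background on the 5 arrays.

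Among mesenchymal transcription factors and surface markers, 19 of 35 were called lower (54.3%, against 10.6% of all genes), 1 was called higher (2.86%, against 10.9%) and 15 were not called, with a median log2 difference of -1.64. Of the 19, 5 were not well above background in any clone and entered the test through the MEF array alone. Meox2, a homeobox gene of limb and muscle mesenchyme, had 0.03 in MEF and was not well above background in any clone, at least 46.6-fold lower. Osr2 and Tcf21, regulators of limb and visceral mesenchyme, were likewise dark in all clones, at least 9.01-fold and at least 4.63-fold lower. Tbx5, a forelimb T-box gene, went from -0.51 in MEF to -4.07 in 1-A3, -5.44 in 1-B, -5.37 in 1-C3 and -4.52 in 1-D6, a 20.3-fold decrease (limma, adjusted p = 0.000255), measured on 2 of the 4 clone arrays. Of the other regulators some were also called lower, among them close relatives of those given next, and some did not pass the test. Twist2 was at 2.22 in MEF and between 1.73 and 2.60 in the clones, and Zeb1, a repressor of epithelial genes, was at 1.69 and between 1.26 and 1.77. Vim, the intermediate filament vimentin, was at 7.50 and between 6.57 and 6.92, a log2 difference of -0.75 (limma, adjusted p = 0.228).

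Thy1, a surface glycoprotein of fibroblasts whose loss is commonly used to follow early reprogramming, went up. Its log2 level was 3.55 in MEF, 6.21 in 1-A3, 5.79 in 1-B, 5.63 in 1-C3 and 6.64 in 1-D6, a 5.74-fold increase (limma, adjusted p = 0.0111), and both probes of the gene were called higher. The ES lines were at 3.96 and 5.41, so all 4 clones lay above them too.

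Most matrix genes did not pass the test. Of 41, 8 were called lower (19.5%, against 10.6% of all genes) and 0 higher by limma (1 at an unadjusted p under 0.05), with a median of -0.68. Col1a1, the main collagen chain of fibroblasts, had 6.93 in MEF, 7.27 in 1-A3, 6.52 in 1-B, 6.02 in 1-C3 and 7.48 in 1-D6, so the clones lay on both sides of MEF (log2 difference -0.11, SE 0.68). Col1a2 had the same pattern by its brighter probe, while its other probe was called lower. Fn1, fibronectin, was at 3.23 in MEF and between 3.09 and 4.08 in the clones and was not called. The 4 largest of the 8 decreases were those of Eln, elastin, 15.3-fold and well above background on 1 of the 4 clone arrays, Lum, a small proteoglycan, 8.99-fold, Mfap4, a microfibril protein, 6.10-fold, and Col8a1, a short-chain collagen, 4.76-fold. The count of 8 was 4 with only the 5 arrays in the fit and 5 without 1-C3.

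Contractile genes were lower as a group, with 12 of 20 called lower (60.0%, against 10.6% of all genes), 0 called higher by limma (also 0 at an unadjusted p under 0.05) and a median of -1.49. Des, the muscle filament desmin, went from 1.89 in MEF to -2.74 in 1-A3, -1.40 in 1-B, -2.19 in 1-C3 and -2.62 in 1-D6, a 17.5-fold decrease. Mylk, myosin light chain kinase, fell 10.4-fold and Ankrd1, a target of mechanical signalling through YAP, 5.74-fold. Acta2 and Tagln, the smooth muscle actin and transgelin of activated fibroblasts, were not called, and for Acta2 MEF stood at 7.60 and the clones at 6.62, 5.47, 5.53 and 7.44. Summed over the mesenchymal list, the level relative to the 75th percentile, on the linear scale, was 381 in MEF, 291 to 400 in the clones and 121 to 289 in the ES lines, and over the matrix list it was 1061, 484 to 991 and 209 to 440. The clones and the ES lines were both grown on feeder fibroblasts, whose part in these levels was not tested.

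Epithelial genes are the counterpart that rises when cells pass through a mesenchymal-to-epithelial transition, and they were called higher at about the share of all genes. Of 40 measured, 5 were called higher (12.5%, against 10.9% of all genes) and 3 lower (7.5%, against 10.6%), with a median of 0.56. Cdh1, E-cadherin, had -3.48 in MEF, -7.42 in 1-A3, 1.39 in 1-B, 1.56 in 1-C3 and -2.24 in 1-D6, so 1-A3 lay below MEF and the other clones above it. Krt8, a keratin of simple epithelia, was at 1.81 in MEF, -3.59 in 1-A3, 2.19 in 1-B, 3.15 in 1-C3 and -1.04 in 1-D6, on both sides of MEF, and was not called. Its partner Krt18 was at 3.72 in MEF and below it in all clones, between -1.17 and 3.56, and was not called either. Epcam, an adhesion molecule of epithelia and ES cells, was above MEF (-4.20) in every clone, at -2.53, 1.32, 1.15 and -1.70, a 13.6-fold increase by the mean (limma, adjusted p = 0.0249). Lsr, a component of three-cell junctions, rose 3.83-fold. Krt7 and Cldn4 fell, 24.4-fold and 8.47-fold, the latter measured on 1 of the 4 clone arrays. Without 1-A3 the count of higher calls was 9, and it was 3 under normexp background correction and 1 with only the 5 arrays in the fit. The 3 lower calls became 1 under normexp and 0 with only the 5 arrays, where Krt7 and Cldn4 were both lost.

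In the TGF-beta and BMP pathway 13 of 30 genes were called lower (43.3%, against 10.6% of all genes) and 0 higher by limma (also 0 at an unadjusted p under 0.05), with a median of -1.13. The decreases included ligands on both arms. Tgfb2 had 2.28 in MEF, -1.27 in 1-A3, -1.69 in 1-B, -2.06 in 1-C3 and -0.75 in 1-D6, a 13.2-fold decrease (limma, adjusted p = 0.00114). Bmp4 had 0.92 in MEF and -4.03, -3.87, -3.70 and -4.25 in the clones, a 29.4-fold decrease (adjusted p = 0.0015), and the ES lines lay between, at -0.70 and -1.06. Bmp2 fell 25.6-fold, with 1 of 4 clone arrays well above background. Bmp7 fell 22.2-fold with a wide spread from -5.58 in 1-A3 to -0.33 in 1-C3. The Bmp7 call was lost in 4 settings, among them with only the 5 arrays in the fit, with the slide as a block and without 1-D6. The ligand gene Tgfb1 was at -0.77 in MEF and between -1.32 and -0.76 in the clones and was not called.

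The Hox genes, which hold the positional identity of fibroblasts, were mostly lower. Of 34 measured, 23 were called lower (67.6%, against 10.6% of all genes) and 0 higher by limma (2 at an unadjusted p under 0.05), with a median of -1.94, although 7 of the 23 were not well above background in any clone, and the count was 12 when every probe had to be well above background on all 5 arrays. Hoxd13, a gene of digits and the posterior body, went from 1.35 in MEF to -5.32 in 1-A3, -4.96 in 1-B, -4.54 in 1-C3 and -4.43 in 1-D6, a 71.6-fold decrease (limma, adjusted p = 8.87e-06) with 3 of 4 clone arrays well above background. Hoxd11, Hoxb13 and Hoxa2 were dark in all clones, at least 6.23-fold, 6.16-fold and 6.00-fold lower. Hoxb6 was the opposite case, at -2.25 in MEF and between -1.48 and 0.11 in the clones, and was not called (limma, adjusted p = 0.0621), while its other probe was called lower. With normexp in place of the plain background subtraction the median of the list was -0.87.

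Imprinted genes, expressed from 1 parental copy and strongly active in growing embryonic tissue, were called lower in 9 of 30 cases (30%, against 10.6% of all genes) and higher in 1 (3.33%, against 10.9%), with a median of -1.02. Igf2, the fetal growth factor, had 7.85 in MEF, 3.28 in 1-A3, 3.59 in 1-B, 2.59 in 1-C3 and 3.67 in 1-D6, a 23.7-fold decrease (limma, adjusted p = 0.000175). Its neighbour H19, a non-coding RNA expressed from the other parental copy, fell 19.7-fold, from 6.58 to between 1.83 and 3.08. Dlk1, a Notch-related ligand of the Dlk1-Dio3 cluster, went from 5.09 to -1.12, -0.40, 0.42 and 0.66, a 36.8-fold decrease. Snrpn, a splicing factor gene, was the 1 called higher, 5.47-fold, a call lost with only the 5 arrays in the fit. Cdkn1c, a growth inhibitor, was at 4.85 in MEF and at 4.48 in 1-B against 1.49, 1.81 and 1.33 in the other clones, and was not called.

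Secreted factors of fibroblasts were called lower in 10 of 33 cases (30.3%, against 10.6% of all genes) and higher in 2 (6.06%, against 10.9%), and with only the 5 arrays in the fit these counts were 6 and 1. Ccn3, a matricellular protein gene, fell 22.2-fold, measured on 2 of the 4 clone arrays. Ptn, the heparin-binding growth factor pleiotrophin, fell 9.75-fold and Cxcl12, a chemokine, 7.52-fold, from 3.22 to between -0.29 and 0.71. Ccn5, of the same family as Ccn3, rose 8.88-fold from -3.84 to between -2.13 and 0.30, a call lost with only the 5 arrays, and Grn, progranulin, rose 2.16-fold, a call lost under quantile normalization.

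Many interferon-stimulated genes were lower in every clone than in MEF. These genes are switched on when cells sense interferon, and pluripotent cells are known to keep them low. Of 32 interferon and antigen presentation genes, 20 were called lower (62.5%, against 10.6% of all genes), 12 were not called and 0 were called higher by limma (also 0 at an unadjusted p under 0.05), with a median log2 difference of -2.75. Isg15, a ubiquitin-like modifier, had 4.64 in MEF, -2.37 in 1-A3, -2.31 in 1-B, -3.07 in 1-C3 and -2.31 in 1-D6, a 142-fold decrease (limma, adjusted p = 7.49e-05). Usp18, the protease that removes it, had 3.75 in MEF and -4.47, -4.44, -4.05 and -3.87 in the clones, a 249-fold decrease. Ifit3, an RNA-binding antiviral gene, fell 106-fold, from 4.04 to between -3.13 and -2.14, and its neighbour Ifit1 fell 397-fold, with 1 of 4 clone arrays well above background.

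For Isg15 and Ifit3 the ES lines lay near the clones, at -3.25 and -1.88 for Isg15 and -4.53 and -2.37 for Ifit3. Over the list the median level was higher in the ES lines than in any clone. It was -0.61 in B6ES and -0.26 in TT2, between -2.13 and -1.21 in the clones, and 2.63 in MEF. Among genes outside the list that were named for the size of their change, Rtp4 fell 205-fold, the chemokine gene Ccl5 112-fold, and Iigp1, Ifi44 and Oasl1 were dark in all clones and at least 185-fold, 170-fold and 127-fold lower. H2-K1, a class I histocompatibility gene, was not called, with 3.63 in MEF and 2.63, 3.62, 3.54 and 2.57 in the clones. The MEF array is the only one of fibroblasts without feeder cells or leukemia inhibitory factor, so the state of that culture and the cell type cannot be told apart here.

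Promoters of these genes are shown because the members moved together and because some carry the element known from interferon-responsive promoters. The element, 2 runs of GAAA with any 2 bases between them, was searched on both strands in the 250 bases before each gene's start in RefSeq's mouse annotation on GRCm38.p6, and overlapping matches were counted separately. Of 20 such windows of 17 of the called interferon genes, 7 held a match (35.0%), against 2.68% of 15771 windows of all genes tested, 5.57% for genes called lower and 1.85% for genes called higher. The windows of Isg15 on the minus strand at chr4:156200819-156201068, of Ifit3 on the plus strand at chr19:34583279-34583528 and of Ifit1 on the plus strand at chr19:34640639-34640888 hold 3, 2 and 2 matches, in capitals.
Isg15: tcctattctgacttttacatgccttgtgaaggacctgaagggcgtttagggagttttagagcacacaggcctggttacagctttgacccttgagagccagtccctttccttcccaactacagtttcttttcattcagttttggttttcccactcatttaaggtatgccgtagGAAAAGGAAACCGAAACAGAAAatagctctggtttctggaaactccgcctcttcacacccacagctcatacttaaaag
Ifit3: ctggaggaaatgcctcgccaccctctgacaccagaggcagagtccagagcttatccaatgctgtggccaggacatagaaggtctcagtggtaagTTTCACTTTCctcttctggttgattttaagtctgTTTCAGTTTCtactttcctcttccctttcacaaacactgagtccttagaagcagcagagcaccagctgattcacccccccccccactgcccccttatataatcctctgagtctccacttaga
Ifit1: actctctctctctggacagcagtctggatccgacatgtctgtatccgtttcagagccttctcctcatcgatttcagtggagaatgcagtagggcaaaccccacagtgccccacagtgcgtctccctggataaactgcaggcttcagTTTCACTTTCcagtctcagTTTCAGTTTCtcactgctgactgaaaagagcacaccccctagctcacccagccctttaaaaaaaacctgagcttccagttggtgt

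A match of letters is a description and does not show that a protein binds there.

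Genes of striated muscle were among the largest decreases. All 12 measured members of the skeletal and cardiac muscle list were called lower (100%, against 10.6% of all genes), with a median log2 difference of -5.74. Myog, myogenin, the transcription factor that starts muscle differentiation, had 4.41 in MEF and was not well above background in any clone, with -6.55 in 1-A3, -7.60 in 1-B, -7.75 in 1-C3 and -7.85 in 1-D6, at least 973-fold lower (limma, adjusted p = 1.38e-07). Myh3, the embryonic myosin heavy chain, had 4.75 in MEF and -3.38, -4.0, -3.35 and -3.74 in the clones, a 329-fold decrease. Tnni1, slow troponin I, fell 257-fold and Tnnt2, cardiac troponin T, 247-fold, with clone levels between -5.22 and -3.67 for the pair.

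Outside the list, the genes named for the size of their change included further muscle genes. Chrng, the fetal subunit of the acetylcholine receptor, and the muscle genes Myom2, Mybph, Cav3 and Myh6 were dark in all clones and at least 291-fold, 222-fold, 155-fold, 146-fold and 76.1-fold lower, and Myh7 and Myl4, which encode a myosin heavy and a light chain, fell 137-fold and 115-fold. On the linear scale relative to the 75th percentile, the summed level of the list was 156 in MEF, 8.19 to 29.0 in the clones and 8.34 to 11.4 in the ES lines. MEF cultures are prepared from whole embryo tissue and can hold cells other than fibroblasts, and the share of such cells on the MEF array was not tested.

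The E-box letters CAGCTG, a form bound by the myogenic factors, read the same on both strands and were found in 5 of 13 windows of 11 of these genes (38.5%), against 12.5% of all windows. They were found in 16.4% of the windows of genes called lower and in 25% of those of the called interferon genes. No window of the list held the paired GAAA element. The window of Tnnt2 on the plus strand at chr1:135836084-135836333 and that of Chrng on the plus strand at chr1:87205561-87205810 hold 2 matches each, in capitals, while a further Tnnt2 start of the annotation has none.
Tnnt2: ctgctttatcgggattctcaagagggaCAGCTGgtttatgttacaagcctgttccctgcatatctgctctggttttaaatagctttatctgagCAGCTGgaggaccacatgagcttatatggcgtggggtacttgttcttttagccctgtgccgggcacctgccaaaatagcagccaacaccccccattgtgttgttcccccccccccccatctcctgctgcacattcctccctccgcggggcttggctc
Chrng: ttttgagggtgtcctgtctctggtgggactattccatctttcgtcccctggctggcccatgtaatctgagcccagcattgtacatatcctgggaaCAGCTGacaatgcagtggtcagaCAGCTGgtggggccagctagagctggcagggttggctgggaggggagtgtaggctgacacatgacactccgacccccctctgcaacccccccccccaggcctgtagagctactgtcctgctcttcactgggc

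Over all genes the same windows differed in base composition between the directions. The median ratio of observed to expected CpG was 0.679 for genes called higher, 0.503 for genes called lower and 0.665 for all genes tested, and the CCAAT box was found in 39.0%, 29.9% and 34.9% of the windows. In the windows of the replication and mitosis genes called higher, the ratio was 0.791, and 21 of 32 windows held CCAAT (65.6%) and 9 held TTTGAA (28.1%, against 11.3% of all windows and 14.9% for genes called higher), the letters of the cell cycle homology region. For the called muscle and interferon genes the ratio was 0.265 and 0.294.

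Of 24 endoderm and trophectoderm genes 7 were called lower (29.2%, against 10.6% of all genes) and 1 higher (4.17%, against 10.9%), and their median of -0.32 turned to 0.12 under normexp background correction. Afp, the fetal serum protein, fell 53.6-fold, with 2 of 4 clone arrays well above background, and Gata6 and Gata3 fell 9.52-fold and 7.53-fold. Tfap2c, a factor of trophectoderm and germ cells that ES cells also express, rose 7.03-fold to between 0.48 and 1.47. Of 26 neural and mesoderm genes 3 were called lower (11.5%) and 1 higher (3.85%), the former about the share of all genes. Dcx, doublecortin of migrating neurons, fell 23.9-fold and Kdr, the VEGF receptor of mesoderm and endothelium, 20.9-fold. Foxd1, a factor of stromal cells, was at 0.84 in MEF and at 4.58, 2.34, 4.16 and 4.99 in the clones, and was not called, with an SE of 1.64 (limma, adjusted p = 0.17).

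Germline genes were largely silent in both, with 15 of 26 measured. Of these 1, Tdrkh, was called higher (6.67%, against 10.9% of all genes), by 2.64-fold. Of 10 cartilage and bone markers 5 were called lower (50%, against 10.6% of all genes), among them Col2a1 (6.79-fold), Acan (4.07-fold) and Col11a2 (3.54-fold). That count was 2 under normexp background correction. The marker called higher was Alpl (10%, against 10.9%), which rose 129-fold. The remaining marker lists were small. Myeloid and lymphoid markers had 2 of 11 called lower (18.2%, against 10.6% of all genes), Itgam and Cd52. The median log2 difference of this list was -1.46, and at limma's unadjusted p under 0.05 the counts were 8 lower and 0 higher. The summed levels of this list, in which the brightest members weigh most, went the other way, with 42.8 in MEF and 58.6 to 85.6 in the clones. Endothelial markers had 2 of 9 called lower (22.2%, against 10.6% of all genes) and 1, Egfl7, higher (11.1%, against 10.9%). The Egfl7 call was lost in 8 settings, among them without 1-B, without 1-C3 and without 1-D6. Erythroid markers had 2 of 8 lower (25%, against 10.6%) and 1 higher (12.5%, against 10.9%), and 0 in either direction when every probe had to be well above background on all 5 arrays.

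**Figure D4:**
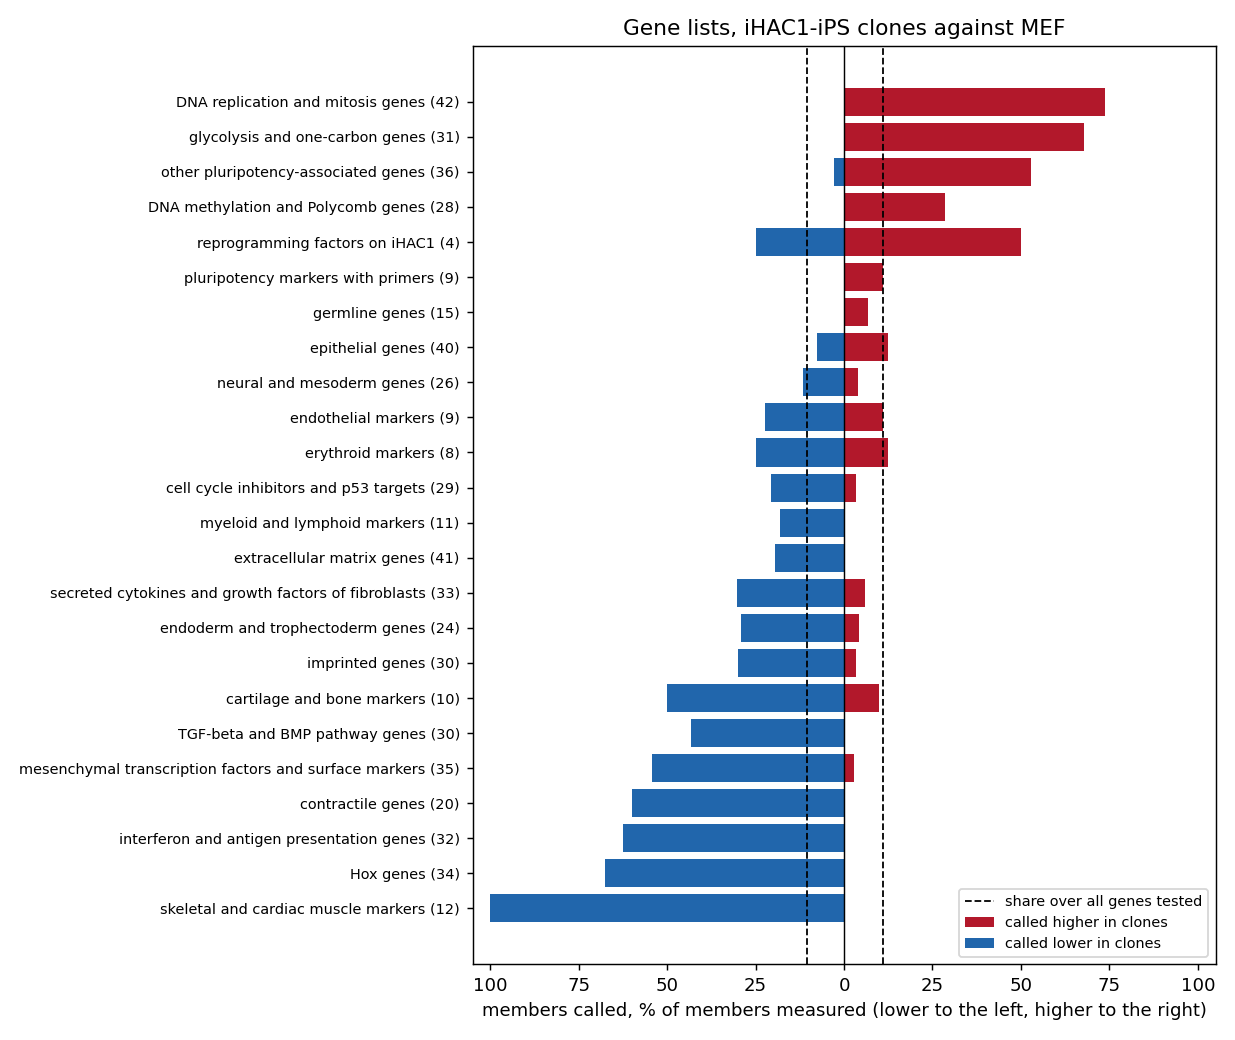
Share of the measured members of each gene list (number in brackets) that was called lower (bars to the left) or higher (bars to the right) in the clones against MEF, in percent. Dashed lines mark the shares over all 19377 genes tested, 10.6% lower and 10.9% higher, and the epithelial list lies close to both lines while all 12 muscle markers were lower.

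The 2 largest increases among genes measured on all 5 arrays were in genes that were lower in the ES lines than in any clone. Slc38a5, an amino acid transporter gene on the X chromosome, had -4.88 in MEF, 3.13 in 1-A3, 7.43 in 1-B, 5.08 in 1-C3 and 3.90 in 1-D6, an 871-fold increase (limma, adjusted p = 0.000247), and -1.37 and -1.62 in the ES lines. Esx1, an X-linked homeobox gene of placenta and testis, went from -5.33 to between 2.05 and 4.01, a 399-fold increase, against -0.06 and -2.68 in the ES lines. Lrmp rose 114-fold, and Olig1, a helix-loop-helix factor of oligodendrocytes, 112-fold. Enpp3, an ectonucleotidase gene, rose by 6.65 on the log2 scale to between 2.66 and 3.39, with the ES lines at 2.65 and 2.03. The uncharacterised gene 1700019D03Rik rose by 6.74 to between 1.39 and 2.17, with the ES lines at 2.30 and 1.84.

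Among genes dark in MEF, Trh, the thyrotropin-releasing hormone precursor, was split, with -4.0 in 1-A3 and 0.85 in 1-D6 against 3.48 and 3.54 in 1-B and 1-C3, at least 125-fold higher by the mean. Prl2c5 and Prl2c3, prolactin-family genes that are close copies of each other and may share signal, were at least 123-fold and 89.0-fold higher. Glod5 and Pllp, the gene of plasmolipin, were at least 130-fold and 109-fold higher, and 2 of the 3 Pllp probes were called.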

How the data were processed

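RNA (500 ng per sample) was labelled with Cy3 and hybridized by the authors to 16 1-colour Agilent mouse arrays on 4 slides. The deposited scanner files, made with Feature Extraction 10.7.1.1 (slides 1 and 2) or 10.7.3.1, give spot intensity on a linear scale with background subtracted. The deposited value table of the authors, from GeneSpring GX 11, gives log2 values from which each probe's centre was removed, and all 16 of its columns were mapped to samples. It served for 1 alternative.

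From the intensity, control spots and outlier flags were left out, each log2 value had the array's 75th percentile subtracted, and spots of a probe were averaged. Limma 3.58.1 in R 4.3.3 (lmFit, eBayes) was fitted to all 16 arrays in 6 groups, with Benjamini-Hochberg adjustment. In simulated data limma recovered 40% of probes changed by 1.5 on the log2 scale and 84% of those changed by 3 for this comparison, over 28876 probes. The simulation changed 50 probes at each size, far fewer than were called in the data, so these rates need not hold there. It also let the MEF array vary like the groups with replicates and does not check that assumption. Each gene was read by its brightest probe over the 5 arrays, and 26682 probes were named by accession through RefSeq symbols. Where a probe was not well above background in one group, the fold is a bound ("at least"): the brighter group's mean against the higher of the probe's own level and the lowest level well above background on each array. For probes called lower that only some clone arrays measured, the fold uses all 4 clone levels as read and is approximate. Named genes were the 10 largest changes in each direction among probes measured on all arrays and among those dark in one group, genes with primers, and in each list at most 4 called in each direction, besides members given for not being called. The comparison, lists and members were chosen with earlier results of these data known. Figures used matplotlib 3.10.9. The number of arrays limits the precision of every difference. Alternatives were normexp (offset 50), quantile normalization, the deposited table, other filters, the slide as a block, only the 5 arrays, 1 probe or the median of the probes per gene, and each clone left out. The authors' RT-PCR was not analysed here.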

Additional observations from a re-analysis of the deposited data

Results flagged for a closer look

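For 157 named genes and 24 list medians it was asked whether 1 clone lay far from the other 3, with a gap past Dixon's critical value for 4 samples. This was found for 8 genes, where chance gives about 7.85 (1 in 20), and for 0 lists. Clone 1-B was the clone set apart in 4 of the 8. Its log2 level was the lowest for Kcne1l, a potassium channel subunit gene, at -7.36 against -5.79 for the nearest clone, both not well above background, for Mfap4 at -1.31 against 0.27, and for Tfap2c at 0.48 against 1.33. It was the highest for Cdkn1c, at 4.48 against 1.81. Clone 1-C3 was the lowest for Isg15, at -3.07 against -2.37, and the highest for Hba-a1, the adult alpha-globin gene, at -5.16 against -5.38. Clone 1-A3 was the lowest for Nr0b1, at -1.36 against 2.28, and 1-D6, on another slide than the other 3 clones and MEF, the highest for Klf4, at 2.90 against 2.15.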

How the results depend on the processing

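No paired analysis was possible because the labels give the clones no replicate numbers that MEF shares. The numbers of probes called stayed within 1.5 times under every alternative except for lower calls, which were 1838 with normexp background correction and 1704 when probes had to be well above background on all 5 arrays, where 60.0% of the calls were higher against 49.9%. By size alone, normexp left 1299 probes at least 2-fold higher and 1379 lower, and the strict filter left 1527 lower. Without 1 clone, limma called 2675 to 3025 probes higher and 2656 to 2929 lower, and 2539 to 2791 and 3190 to 3429 passed by size. Within slide 1, which holds MEF and all clones but 1-D6, these were 3025, 2903, 2791 and 3385. The median difference of all probes was 0.28 under normexp against 0.15, and no probe was called in the opposite direction under any scaling. Of 123 called named genes, 82 were called under every setting that gave a value, 26 were lost with only the 5 arrays, 15 with normexp, 6 with the slide as a block and 1 to 6 without 1 clone. Log2 differences changed sign under normexp for Lamb3 (0.22), Cdh5 (0.018) and Hba-x (0.18), all dim, and for Dppa3 (0.35). Without 1 clone the difference of Col1a1 ranged from -0.33 to 0.15 (without 1-C3) and that of Col1a2 from -0.29 to 0.18 (without 1-C3), with 0.04 without 1-B. Calls of Sp7, Egfl7, Cdkn2c and Btg2 were lost in 6, 8, 7 and 5 settings, some of them without a single clone. The cause was not tested.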

Other observations

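On chromosome Y 6 probes were called lower in the clones and 0 higher, while 10.3% of all probes were called in each direction. Y probes without a call are not listed or counted here, so the 6 cannot be read as a share to set beside 10.3%. Only 3 Y probes were well above background on all 5 arrays. Ddx3y, a gene of a DEAD-box helicase chosen after its values were seen, was at 1.18 in MEF, -2.60 in 1-A3, -2.41 in 1-B, -3.24 in 1-C3 and -2.0 in 1-D6, and at -2.58 and -2.45 in the ES lines. Eif2s3y fell from 1.46 to between -2.98 and -1.62, and Kdm5d and Uty were not well above background in any clone, at least 7.27-fold and 3.04-fold lower. Xist, the RNA of the inactive X chromosome, was not called by any of its 4 probes, and by the brightest it was at 1.11 in MEF, 0.27 in 1-A3, 2.56 in 1-B, 0.25 in 1-C3 and 1.84 in 1-D6.

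Of 6695 genes with more than 1 probe tested, 18 had probes called in opposite directions, Myc among them. In 13 of these the brightest probe was called higher and in 2 lower. Sdk2, chosen after its values were seen, is a further example, with differences of 2.95 for one probe and -3.86 for the other on the log2 scale.

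Hbb-bh1, an embryonic beta-type globin gene, was not well above background in MEF and was at 1.89, 1.62, 1.5 and 2.19 in the clones, at least 222-fold higher by 1 probe, while the adult globin gene Hba-a1 fell from -0.95 to between -5.43 and -5.16.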
